A study of Mus musculus with 44 samples.

Results

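The protein-coding transcripts of the mouse mitochondrial genome were followed in single two-cell embryos that kept or lacked *Dppa2* and *Dppa4*. The members were taken by name from the rows on chromosome MT of the gene table, which gave 10 of 35269 rows. They are *mt-Nd1*, *mt-Nd2*, *mt-Nd4*, *mt-Nd5* and *mt-Nd6* of complex I, *mt-Cytb* of complex III, *mt-Co1*, *mt-Co2* and *mt-Co3* of complex IV, and *mt-Atp6* of the ATP synthase. The table has 13 rows on chromosome MT, and the other 3 (*mt-Nd3*, *mt-Nd4l* and *mt-Atp8*) held median read counts of 69.5, 46.5 and 19.5 per embryo.

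Mitochondrial DNA is a small circular genome that is inherited through the oocyte and transcribed by its own polymerase, Polrmt, as long precursors from both strands. Transfer RNAs punctuate these precursors, and their excision releases the individual messenger RNAs. Most of these messenger RNAs are then polyadenylated, and their stability differs. The encoded proteins are core membrane subunits of the respiratory chain and assemble with many subunits encoded in the nucleus. Dppa2 and Dppa4 are nuclear, chromatin-binding proteins that act as a heterodimer around zygotic genome activation.

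The data comprise 44 embryos, each sequenced as its own library after oligo-dT capture of its mRNA, from natural matings of C57Bl/6 mice in 6 litters, with 2 litters for each of 3 crosses. The 14 Dppa2/4+/+ embryos (WT, 10 and 4 per litter) came from Dppa2/4+/+ females and Dppa2/4+/+ males. The 15 HET1 embryos (7 and 8 per litter) were Dppa2/4+/-, from females whose floxed *Dppa2/4* alleles were deleted by Zp3-Cre and from Dppa2/4+/+ males. The same kind of female mated to Dppa2/4+/- males gave 5 HET2 embryos (4 and 1 per litter), which were Dppa2/4+/-, and 10 Dppa2/4-/- embryos (HOM, 3 and 7 per litter), and the authors told HET2 from HOM by the *Dppa2* and *Dppa4* transcripts of the embryo. HET1, HET2 and HOM thus all lacked the maternal supply, and only HOM also lacked an intact paternal allele.

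Zp3 drives Cre in growing oocytes, and the data do not date the deletion against the maternal transcripts and mitochondria handed to the embryo. The labels do not state whether the control females carried Cre. Each litter of the WT and HET1 crosses held a single genotype, so that comparisons with WT rest on 2 litters a cross, whereas HET2 and HOM shared both of their litters. Total reads ranged from 247667 to 3163026 per embryo, with medians of 1770010 in WT, 528166 in HET1, 1108889 in HET2 and 803369 in HOM. All 8 two-cell markers and all 7 oocyte markers had a median above 0 reads over the embryos. For cumulus cells, which surround the oocyte, 11 of 12 markers had a median of 0 reads, with a summed level of 0 to 49.2 RPM (the reads of a gene scaled to a fixed library total), and all 4 sperm markers had a median of 0. The levels are shares of the reads of a library, so that fewer mitochondria and less RNA per mitochondrion cannot be told apart.

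The nuclear genome holds copies of mitochondrial DNA, and the reads had been kept at a mapping quality of 20 or more, a filter that bears on reads that fit several places. The members were therefore first set beside their copies in the GENCODE annotation of GRCm38, the build of the table. Of the 10 members, 9 aligned over at least 75 bases, the read length, to 29 annotated pseudogenes in the nuclear genome, 0 of which are rows of the table. The closest set lies on the minus strand of chromosome 1 between 24611535 and 24616197 and holds *Gm28439*, *Gm28437*, *Gm10925*, *Gm28661* and *Gm29216*. *Gm28661* matches *mt-Co2* at 100% over 681 bases, *Gm10925* matches *mt-Atp6* over 678 bases, *Gm28437* matches *mt-Co3* over 783 bases, and *Gm28439* matches the first 876 bases of *mt-Nd4*. *Gm29216* matches the last 483 bases of *mt-Co1* at 99.79%, and *Gm13340* on chromosome 2 matches its whole length at 97.61%. Identity of the closest copy was 96.67% for *mt-Nd2* and *Gm13339*, 95.18% for *mt-Nd5* and *Gm4076*, 93.64% for *mt-Nd6* and *Gm11408* and 92.91% for *mt-Cytb* and *Gm11410*, and *mt-Nd1* had no such copy.

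The stretches below have the length of a read, which in these paired-end libraries is placed together with its mate. Each pair covers the same stretch of the member and of its copy, 5′ to 3′ on the transcript strand in GRCm38, with the bases that differ in capitals. The pair of *mt-Co2*, at chrM:7313-7387 on the plus strand, and *Gm28661*, at chr1:24615191-24615265 on the minus strand, differed at 0 of 75 bases.
mt-Co2: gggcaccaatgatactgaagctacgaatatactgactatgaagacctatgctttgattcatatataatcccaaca
Gm28661: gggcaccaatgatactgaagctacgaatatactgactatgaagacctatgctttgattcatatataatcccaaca
Those of *mt-Co1* (chrM:5628-5702, plus strand) and *Gm13340* (chr2:22589273-22589347, minus strand) differed at 1 of 75 bases.
mt-Co1: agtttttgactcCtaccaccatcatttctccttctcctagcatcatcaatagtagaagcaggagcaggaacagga
Gm13340: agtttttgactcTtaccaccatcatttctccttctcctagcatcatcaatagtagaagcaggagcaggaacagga
Those of *mt-Cytb* (chrM:14445-14519, plus strand) and *Gm11410* (chr4:80004289-80004363, plus strand) differed at 8 of 75 bases.
mt-Cytb: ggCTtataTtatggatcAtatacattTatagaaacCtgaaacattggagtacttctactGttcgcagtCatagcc
Gm11410: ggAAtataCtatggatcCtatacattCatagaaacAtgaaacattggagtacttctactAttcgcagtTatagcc
Those of *mt-Nd6* (chrM:13696-13770, minus strand) and *Gm11408* (chr4:80003540-80003614, minus strand) differed at 10 of 75 bases.
mt-Nd6: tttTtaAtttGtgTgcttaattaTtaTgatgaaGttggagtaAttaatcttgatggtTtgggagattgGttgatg
Gm11408: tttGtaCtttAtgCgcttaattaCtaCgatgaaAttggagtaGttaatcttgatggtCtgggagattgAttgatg

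Every window of 75 bases was then searched for an identical copy among the nuclear transcripts. The share of windows with one was 99.9% for *mt-Co3*, 99.5% for *mt-Co2* and 99.5% for *mt-Atp6*. It was 61.5% for *mt-Nd4*, whose copy covers only the first part of the gene, and 39.8% for *mt-Co1*. It was 5.71% for *mt-Nd2* and 1.66% for *mt-Nd5*, and *mt-Nd1*, *mt-Nd6* and *mt-Cytb* had 0 of 883, 0 of 445 and 0 of 1070 windows with an identical copy. These shares cover annotated transcripts, not the whole nuclear genome.

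The levels of the members, as RPM per kilobase (kb) of the gene, spanned more than 2 orders of magnitude and fell in the same broad order in each embryo. *mt-Nd1* (chromosome MT, 2751 to 3707, plus strand), *mt-Cytb* (14145 to 15288, plus) and *mt-Co1* (5328 to 6872, plus) were the 3 highest in 44 of 44 embryos, with medians of 22361, 19630 and 16159 RPM per kb. *mt-Nd1* was first in 26 embryos and *mt-Cytb* in 18, so these neighbours did not differ beyond their spread. *mt-Cytb* exceeded *mt-Co1* in 38 of 44 embryos, by a median ratio of 1.22.

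Among the members, the other complex I transcripts on the plus strand came next in all 44 embryos. *mt-Nd2* (3914 to 4951), *mt-Nd5* (11742 to 13565) and *mt-Nd4* (10167 to 11544) had medians of 7634, 4797 and 4335 RPM per kb, and *mt-Nd5* was above *mt-Nd4* in 32 of 44 embryos. *mt-Nd6* (13552 to 14070) is the only member on the minus strand, where the precursor is read in the opposite direction, and ranked 7 of 10 in all 44 embryos with a median of 941 RPM per kb. Its interval overlaps the end of *mt-Nd5* on the opposite strand, and the reads were counted without regard to strand. The libraries were captured by oligo-dT, and the poly(A) tails of the members were not measured.

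*mt-Atp6* (7927 to 8607, plus), *mt-Co2* (7013 to 7696, plus) and *mt-Co3* (8607 to 9390, plus) were the 3 lowest in 44 of 44 embryos, with medians of 214, 91.5 and 74.5 RPM per kb. *mt-Atp6* was above *mt-Co2* in 38 embryos and *mt-Co2* above *mt-Co3* in 24, so that the last 2 did not differ beyond their spread. Co1, Co2 and Co3 are the core subunits of the same enzyme, yet *mt-Co1* stood above *mt-Co2* by a median ratio of 193 (31.9 to 645) and above *mt-Co3* by 189 (15.5 to 650) per length. These 3 low members are the ones with an identical nuclear copy for at least 99.5% of their windows. *mt-Nd4*, with 61.5%, ranked above *mt-Nd6*, with 0%. The part of the copies and of the mapping filter in the levels was not tested, since the reads themselves were not analysed here.

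**Figure D1:**
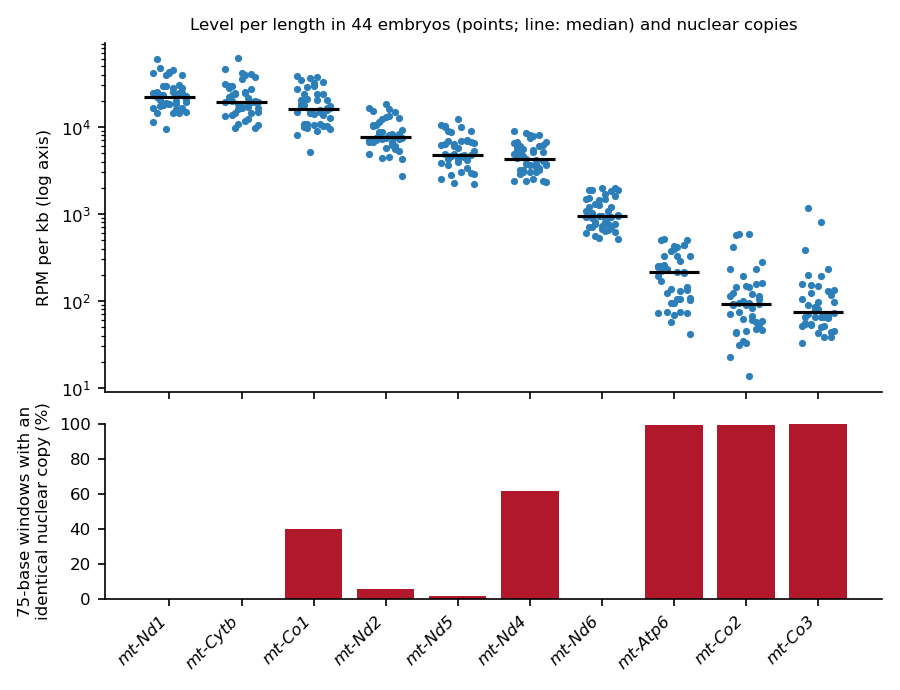
The upper panel plots the level of each member in RPM per kb on a log axis, with a point for each of the 44 embryos and a line at the median, and the lower panel plots the percentage of its 75-base windows with an identical copy among nuclear transcripts. The 3 members at 99.5% or above have medians of 74.5 to 214 RPM per kb. Those at 0% are *mt-Nd1*, *mt-Cytb* and *mt-Nd6*, with medians of 22361, 19630 and 941.

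Together the members took 4.16% to 20.2% of the reads of an embryo, with a median of 9.35% over the 44 embryos. In WT the share was lowest at 7.62%, had a median of 12.1% and reached 20.2%, with a mean of 12.4% ± 3.94 (SD, n = 14). In HET1 it ran from 4.16% through a median of 7.84% to 18.6%, with a mean of 9.35% ± 3.92 (n = 15). In HOM it ran from 6.14% through a median of 8.63% to 19.4%, with a mean of 10.0% ± 4.46 (n = 10).

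The shares of the 5 HET2 embryos were 8.43%, 12.2%, 5.75% and 5.41% in the first litter and 20.1% in the second. The groups overlapped throughout, and the differences of the mean from WT were -3.06 (HET1), -2.04 (HET2) and -2.36 (HOM) percentage points. The HET2 value rests on few embryos, since the mean was 10.4% over all 5 and 7.94% over the 4 of the first litter. A total of 7 of 15 HET1, 2 of 5 HET2 and 3 of 10 HOM embryos were below the lowest WT embryo. No test was made on this sum.

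Litters of the same genotype differed by as much as the groups. The mean share was 13.2% and 10.5% in the first and second WT litter, 11.6% and 7.42% in the HET1 litters, 7.94% and 20.1% (a single embryo) in HET2, and 7.33% and 11.2% in HOM. Of the 7 HET1 embryos below the lowest WT embryo, 5 were in the second litter, and the second litter of the cross with Dppa2/4+/- males had the higher mean in both HET2 and HOM. Embryos with more reads had somewhat larger shares (Pearson r = 0.36 between log2 share and log2 total reads, centred within group and litter, n = 44), and the total is also the denominator of the share.

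**Figure D2:**
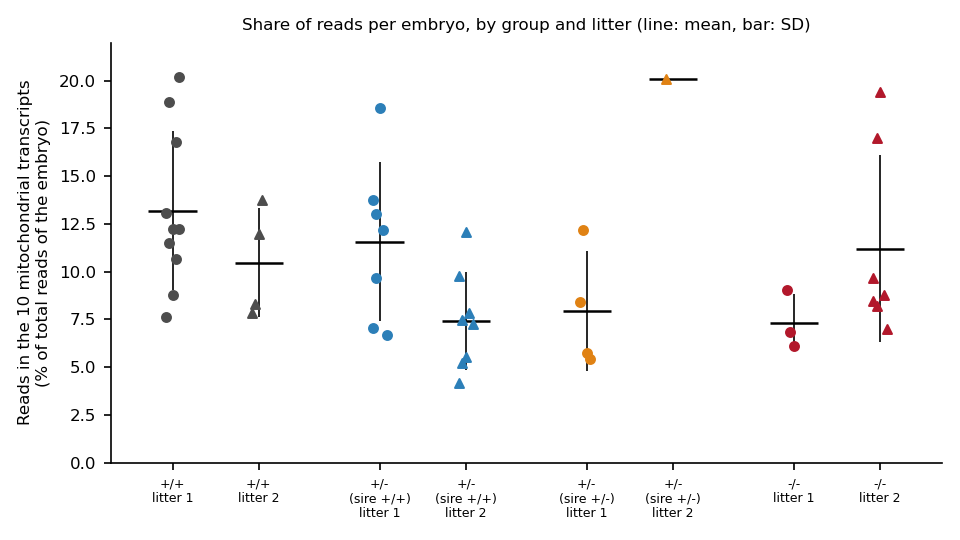
The share of total reads in the 10 mitochondrial transcripts is plotted in percent for each embryo, by group and litter (circles for the first litter, triangles for the second), with the mean as a horizontal line and the SD as a vertical bar, and the axis writes WT as +/+, HET1 as +/- (sire +/+), HET2 as +/- (sire +/-) and HOM as -/-. The 14 WT embryos sit between 7.62% and 20.2%, and the 8 embryos of the second HET1 litter between 4.16% and 12.1%.

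The make-up of this share was dominated by the 3 highest transcripts. *mt-Co1*, *mt-Nd1* and *mt-Cytb* held 69.4% to 81.8% of the members' reads in an embryo (median 74.3%). *mt-Co2*, *mt-Co3* and *mt-Atp6* together held 0.136% to 1.21% (median 0.266%), with median counts of 71.5, 60 and 120 reads per embryo, so that their values carry more counting error than those of the others.

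The first comparison asked whether embryos without any Dppa2/4, maternal or zygotic, differed from control embryos. Each member was tested with limma on the deposited log2 RPM over all 16412 genes whose mean log2 RPM was 0 or more, and a call means an adjusted p under 0.05 over all of them. Between HOM and WT, 0 of 10 members passed. An unadjusted p under 0.05 was found for 3 of 10 members and for 3469 of the 16412 genes. The background was 12 of 16412 genes called, or 0.0731% (0.0609% higher and 0.0122% lower). The differences of the members, HOM minus WT on the log2 RPM scale, ran from -0.49 (*mt-Nd6*) to 0.00 (*mt-Nd2*), with 9 of 10 below 0 and a median of -0.32. All tested genes had a median of 0.49 (a gene with 0 reads is listed higher in a shallower embryo), whereas the 2203 nuclear genes whose mean log2 RPM was 6 or more had a median of -0.01.

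Among the complex I members, *mt-Nd6* lay at 8.55, 9.25 and 9.95 log2 RPM (lowest, median and highest) in WT and at 8.16, 8.78 and 9.79 in HOM. The ranges overlapped, although 4 of 10 HOM embryos were below the lowest WT embryo, and the difference of -0.49 ± 0.23 (SE) had an adjusted p of 0.198. *mt-Nd4* differed by -0.38 ± 0.19 (adjusted p = 0.232), *mt-Nd1* by -0.26 ± 0.20 and *mt-Nd5* by -0.22 ± 0.22.

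*mt-Co1*, the catalytic core of cytochrome c oxidase, lay at 14.41, 14.97 and 15.80 log2 RPM in WT and at 13.90, 14.48 and 15.82 in HOM. Here too 4 HOM embryos were below all WT embryos while 1 was above them, and the difference was -0.46 ± 0.22 (adjusted p = 0.217, 95% interval -0.90 to -0.02 before adjustment). *mt-Cytb*, which carries electrons within complex III, differed by -0.38 ± 0.21 (adjusted p = 0.275). For *mt-Co2*, *mt-Co3* and *mt-Atp6* the intervals were wider, from -1.11 to 0.71, from -1.20 to 0.47 and from -1.01 to 0.48. One HOM embryo of the second litter, replicate 6, stood above the other 9 in *mt-Co3* (9.29 against at most 6.26 log2 RPM) and in *mt-Nd6* (9.79 against at most 8.96). Without it the differences became -0.72 for *mt-Co3*, -0.60 for *mt-Nd6* and -0.10 for *mt-Nd2*, and still 0 members passed.

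The second comparison asked whether HET1 embryos, which lack the maternal supply but carry an intact paternal allele, differed from WT. They also lack an intact maternal allele and have mothers of another genotype. These differences from WT cannot be told apart here. In HET1 against WT, 3 of 10 members were lower and 0 higher, and with litter as a random effect 0 members and 0 of 16412 genes were called. The background was 24.7% of genes called, with 21.4% higher and 3.35% lower. All 10 differences were below 0, from -0.77 (*mt-Co2*) to -0.01 (*mt-Nd2*), with a median of -0.49, beside a median of 0.61 over all tested genes and -0.02 over the nuclear genes with a mean of at least 6.

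*mt-Co1* lay at 12.95, 14.38 and 15.61 log2 RPM in HET1, with 8 of 15 embryos below the lowest WT embryo, and fell by 0.65 ± 0.20 on the log2 scale (adjusted p = 0.0159), or 1.57-fold. *mt-Nd4*, a membrane subunit of complex I, lay at 11.67, 12.29 and 13.45 in HET1 against 12.04, 12.97 and 13.53 in WT. Its difference was -0.59 ± 0.17 (adjusted p = 0.0112), and 14 of 15 HET1 embryos were below the WT mean. *mt-Cytb* lay at 13.59, 14.26 and 15.33 in HET1 against 14.04, 14.93 and 16.10 in WT, a difference of -0.58 ± 0.19 (adjusted p = 0.0210).

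None of the 3 genes separated the groups, since 7 of 15 (*mt-Co1*), 10 of 15 (*mt-Nd4*) and 9 of 15 (*mt-Cytb*) HET1 embryos lay within the WT range. *mt-Nd1* (-0.36 ± 0.18) and *mt-Co2* (-0.77 ± 0.41) did not pass, nor did *mt-Nd2*, *mt-Nd5*, *mt-Nd6*, *mt-Co3* and *mt-Atp6*. With litter as a random effect the 3 calls were lost at differences of -0.58 (*mt-Nd4*, adjusted p = 0.157), -0.53 (*mt-Cytb*, 0.207) and -0.59 (*mt-Co1*, 0.184). They were also lost at -0.59, -0.58 and -0.65, in the same order, with a common floor for low values (adjusted p = 0.078, 0.153 and 0.126) and in limma without the trend (0.0608, 0.0891 and 0.0693). In embryos with at least 500000 reads the differences were -0.53, -0.50 and -0.49, and after subtracting the median of all tested genes from each embryo they were larger at -1.05, -1.04 and -1.11, again without a call. Limma voom on the recovered reads gave -0.50, -0.20 and -0.13.

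Single litters were also left out. Without the second HET1 litter 0 members passed, beside 134 of 16412 genes called, and *mt-Nd4*, *mt-Cytb* and *mt-Co1* were at -0.27, -0.42 and -0.18. Without the first WT litter the 3 calls were lost (-0.64, -0.24 and -0.34). The single member that passed was then *mt-Co2* (-2.30, adjusted p = 0.0358), beside 127 of 16412 genes called, 64 of them lower. Without the first HET1 litter 6 members passed, all of them lower. Over the fits with a single litter left out, 127 to 4464 genes were called, beside 4054 (24.7%) with every litter kept. The number of genes called without the first HET1 litter is not given separately here, so its 6 calls have no background of their own. The summed two-cell and oocyte markers had medians of 920 and 8382 RPM in HET1 against 445 and 4195 RPM in WT, and their part in the result was not tested.

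In HET2 against WT, with which they share no litter, 0 of 10 members passed, and all 10 differences were below 0, from -0.77 (*mt-Co3*) to -0.16 (*mt-Nd5*). The background was 0.0122% (0.00609% higher and 0.00609% lower). *mt-Co1* stood at 14.51, 15.18, 13.95, 13.83 and 15.85 log2 RPM in the 5 HET2 embryos, the last of which was the embryo of the second litter and exceeded all 14 WT embryos. Without that embryo *mt-Co1* differed by -0.66, and without the first HET2 litter, which leaves that embryo alone, by 0.83. The 3 comparisons use the same WT embryos, so they are not independent of each other.

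In HET2 against HET1, members differed by -0.32 to 0.29 and 0 of 10 passed, beside a background of 0%. In HOM against HET1 they differed by -0.26 to 0.57 and 0 of 10 passed, beside 0.0122%. With single litters or embryos left out, the background ran from 2 to 1640 genes in HOM against HET1. In HET2 against HET1 it ran from 0 to 71 genes, and 0 members passed in either comparison.

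**Figure D3:**
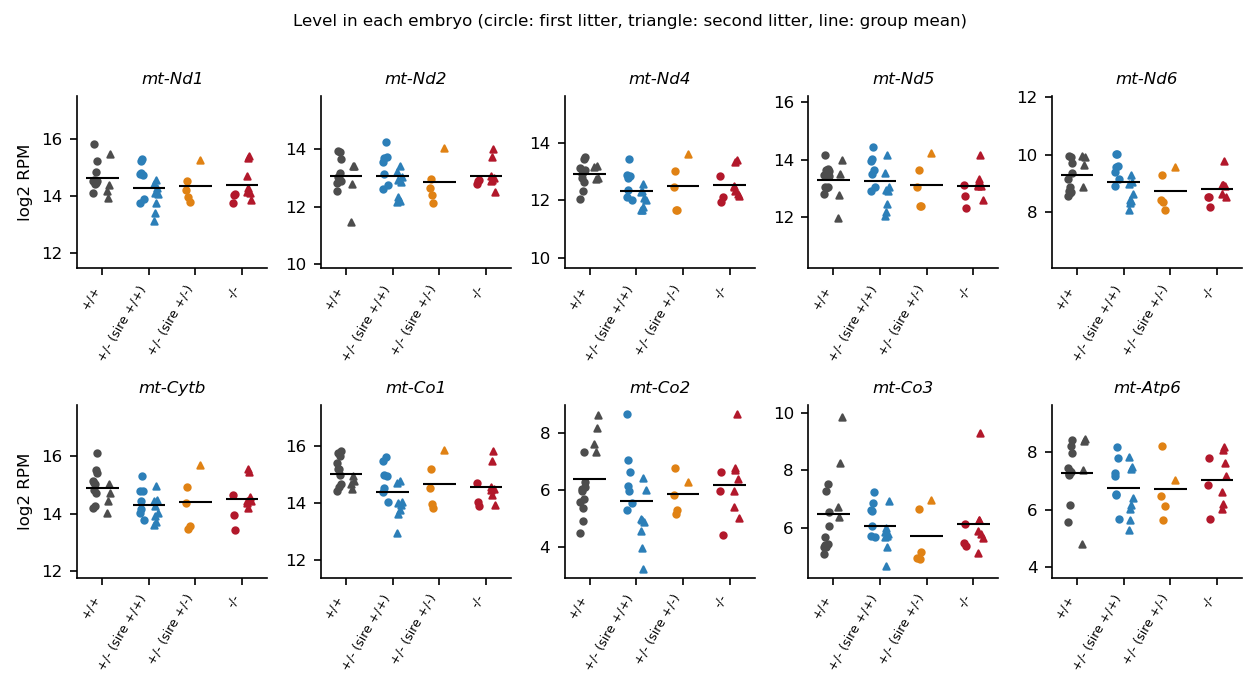
Each panel plots the log2 RPM of a member in each embryo by group, with circles for the first and triangles for the second litter of the group, and a line at the group mean, all panels spanning the same number of log2 units. The groups overlap in every panel, the single HET2 embryo of the second litter is the highest of its group in 8 of 10 panels, and the 4 WT embryos of the second litter lie above the other 10 in *mt-Co2*.

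The cross of females without maternal Dppa2/4 and Dppa2/4+/- males allows null and heterozygous littermates to be compared. Within litters, 0 of 10 members passed between HOM and HET2, against a background of 0.0122%. The differences, HOM minus HET2, ran from -0.49 (*mt-Co1*) to 0.13 (*mt-Atp6*), with 9 of 10 below 0 and a median of -0.28. For *mt-Co1* the 95% interval before adjustment was -0.98 to -0.00064 (adjusted p = 0.821), for *mt-Nd5* -0.87 to 0.02, and for *mt-Nd1* -0.76 to 0.06.

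The differences changed with the litter term. Without the litter term, *mt-Nd1*, *mt-Nd2*, *mt-Nd4*, *mt-Nd6*, *mt-Cytb*, *mt-Co2* and *mt-Co3* turned to the other side of 0, with values of 0.02 to 0.41. In the first litter alone, where 3 HOM embryos stood beside 4 HET2 embryos, 3 members turned, with values of 0.09 to 0.33.

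**Figure D4:**
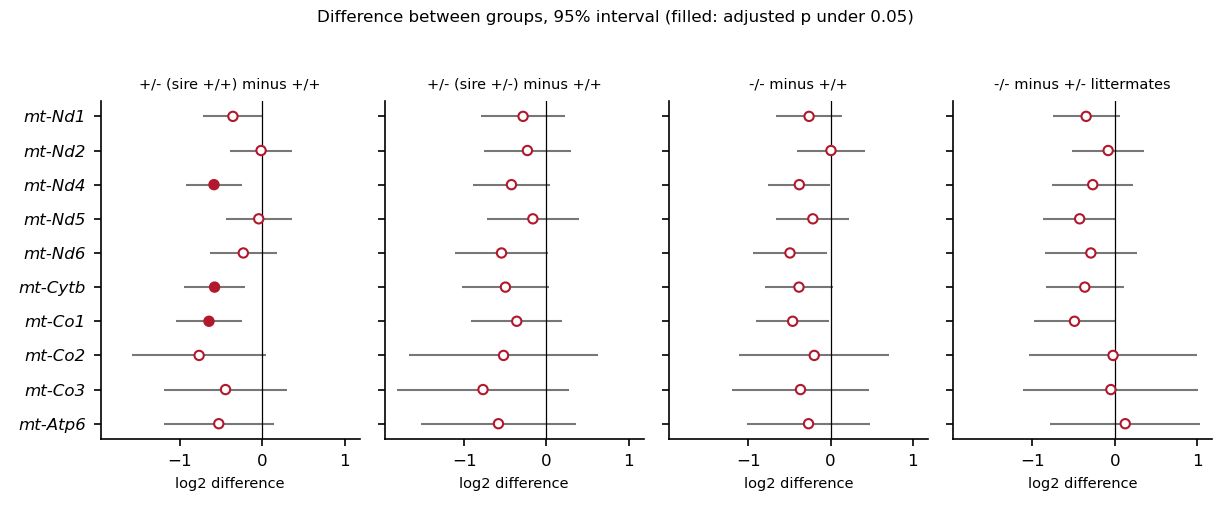
The log2 difference of each member is plotted with its 95% interval from limma for HET1, HET2 and HOM against WT and for HOM against HET2 within litters, with filled points where the adjusted p is under 0.05. The filled points are *mt-Nd4*, *mt-Cytb* and *mt-Co1* in HET1 against WT, and the intervals of *mt-Co2*, *mt-Co3* and *mt-Atp6* are the widest in each panel.

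Litters of the same genotype were tested in the same way. Between the 2 HET1 litters, 6 of 10 members were lower in the second litter and 0 higher, beside a background of 13.7% of genes called (3.64% higher and 10.1% lower). They were *mt-Co1* (-0.87 ± 0.22, adjusted p = 0.00483), *mt-Nd6* (-0.87 ± 0.24, adjusted p = 0.00786), *mt-Co2* (-1.59 ± 0.47, adjusted p = 0.0149), *mt-Nd1* (-0.67 ± 0.22), *mt-Nd5* (-0.74 ± 0.24) and *mt-Nd4* (-0.59 ± 0.20). With the common floor the last 3 were lost at the same differences (adjusted p = 0.0992 for *mt-Nd1*, 0.0877 for *mt-Nd5* and 0.0947 for *mt-Nd4*).

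*mt-Nd6* ran from 8.90 through 9.56 to 10.01 log2 RPM in the 7 embryos of the first litter, and from 8.09 through 8.53 to 9.29 in the 8 of the second. The litters overlapped, but 5 of 8 embryos of the second were below all of the first, as were 6 of 8 for *mt-Co1* and 6 of 8 for *mt-Co2*. All 10 members lay below 0 in this comparison (median -0.66), where the nuclear genes with a mean of at least 6 had a median of -0.14. Re-centred on the latter, *mt-Co2* alone still passed, while *mt-Co1* and *mt-Nd6* were each at -0.71 (adjusted p = 0.0621 and 0.07), *mt-Nd5* at -0.58, *mt-Nd1* at -0.51 and *mt-Nd4* at -0.43. After subtracting the median of all tested genes 0 members passed and 7 of 10 differences were above 0. The litters had similar depth, with medians of 663861 and 524828 total reads.

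Between the WT litters, *mt-Co2* and *mt-Co3* were higher in the second, 2 of 10 members beside a background of 2.90% (2.04% higher and 0.859% lower). *mt-Co2* stood at 7.59, 7.34, 8.17 and 8.60 log2 RPM in the 4 embryos of the second litter, all above the highest of the 10 embryos of the first at 7.32, and the difference was 2.15 ± 0.53 (adjusted p = 0.0131). *mt-Co3* stood at 6.73, 6.36, 8.24 and 9.84 against at most 7.51 in the first, with 2 of 4 above all of them, a difference of 1.83 ± 0.53 (adjusted p = 0.0382). The other 8 members differed by -0.47 (*mt-Cytb*) to 0.44 (*mt-Nd6*), and *mt-Atp6*, the third of the low members, by -0.03.

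*mt-Co2* thus passed in both crosses and in opposite directions. Identical nuclear copies cover 99.5% of the windows of *mt-Co2* and 99.9% of those of *mt-Co3*. The part of the mapping filter in these litter differences was not tested. *mt-Co3* no longer passed in the WT litters with the common floor (adjusted p = 0.0683) or without chromosome MT reads in the total (adjusted p = 0.0508). After subtracting the median of all tested genes neither passed in the WT litters, at larger differences of 2.40 for *mt-Co2* (adjusted p = 0.0625) and 2.08 for *mt-Co3* (0.0981). Between the HOM litters 0 of 10 members passed, beside a background of 0.615% (0.366% higher and 0.25% lower), and all 10 differences, second minus first, were above 0, from 0.30 to 0.75. Over the whole design, the fitted correlation of embryos of the same litter was 0.28 to 0.55 for 9 members and -0.07 for *mt-Atp6*, beside 0.11 as the consensus over all tested genes. Litter and mother cannot be told apart.

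**Figure D5:**
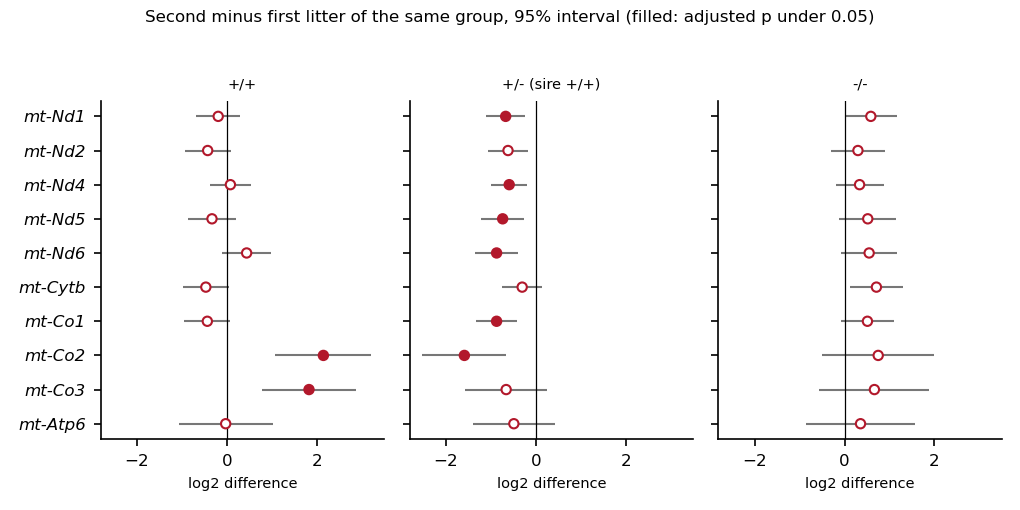
The log2 difference between the second and the first litter of the same group is plotted for each member with its 95% interval from limma, with filled points where the adjusted p is under 0.05. The HET1 panel has 6 filled points below 0, the WT panel has *mt-Co2* and *mt-Co3* above 0, and all 10 points of the HOM panel lie above 0 without passing.

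The members also varied together from embryo to embryo. After centring on group and litter, the SD of log2 RPM was 0.46 to 0.58 for the 7 members with the highest counts and 0.96 to 1.01 for *mt-Co2*, *mt-Co3* and *mt-Atp6*. Nuclear genes within 1 log2 unit of the same mean level had a median SD of 0.47 beside *mt-Nd6*, and of 0.81, 0.78 and 0.66 beside *mt-Co2*, *mt-Co3* and *mt-Atp6*. With the same centring, pairs among the 7 high members had Pearson correlations of 0.62 to 0.91 over the 44 embryos (21 pairs), pairs among the 3 low members 0.54 to 0.63 (3 pairs), and mixed pairs 0.50 to 0.81 (21 pairs). The values of an embryo share its library and its total, so these are descriptions.

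Outside chromosome MT, the genes most like the summed members over the 44 embryos, among 6906 genes whose mean log2 RPM was 3 or more and after the same centring, were *Morc3* (r = 0.80), *Bmi1* (0.79), *Smim27* (0.76), *Gpbp1* (0.74) and *Cetn3* (0.74). Morc3 and Bmi1 are chromatin proteins and Cetn3 is a centrin of the centrosome. Among the least like were *Rnf4* (r = -0.78), a ubiquitin ligase, *Cdca4* (-0.77), *Stk35* (-0.77) and *Cep170b* (-0.75). They are among the extremes of 6906 values, and members and genes are parts of the same total.

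Nuclear genes of mitochondrial transcription and DNA maintenance, RNA processing and stability, and regulators of biogenesis were counted from a list of 50, of which 47 were tested. Between HOM and WT 0 were called, with a median difference of 0.40 beside 0.49 over all tested genes. The 3 with the highest level were *Grsf1*, an RNA-granule protein (-0.40 ± 0.23), *Gabpa*, a transcription factor of nuclear mitochondrial genes (-0.16 ± 0.21), and *Ssbp1*, the single-strand DNA-binding protein (-0.35 ± 0.34), and none passed. Between HET2 and WT, between HET2 and HET1, between HOM and HET1 and within litters between HOM and HET2, 0 of 47 were called.

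Between HET1 and WT, 3 of the 47 were higher and 4 lower, beside 21.4% higher and 3.35% lower over all tested genes. With litter as a random effect 0 of 16412 genes were called in this comparison, so that these calls were lost. The largest were *Polg*, the mitochondrial DNA polymerase (1.56 ± 0.55, adjusted p = 0.0314), *Trmt10c*, a subunit of the RNase that frees tRNA 5′ ends (-1.32 ± 0.28, adjusted p = 0.00188), *Fastkd5*, which matures transcripts without flanking tRNAs (-1.31 ± 0.43, adjusted p = 0.0238), *Nsun4*, an rRNA methyltransferase (1.29 ± 0.44, adjusted p = 0.0282), and *Ssbp1* (-1.08 ± 0.30, adjusted p = 0.0101). *Polg* had low means, 1.80 log2 RPM in WT and 3.36 in HET1. A gene without reads is listed at up to 1.86, and higher in the shallower embryos.

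Between the HET1 litters 9 of the 47 were lower in the second litter and 0 higher, beside 10.1% lower and 3.64% higher over all tested genes. The 5 largest were *Tefm*, the elongation factor of Polrmt (-3.79 ± 0.68, adjusted p = 6.38e-05), *Twnk*, the DNA helicase (-2.96 ± 0.72), *Polrmt* itself (-2.95 ± 0.62, adjusted p = 0.000542), *Mrm3* (-2.58 ± 0.80) and *Trub2* (-1.83 ± 0.43), which modify mitochondrial RNA. Between the WT litters *Tfb2m*, the initiation factor, was lower (-2.44 ± 0.56) and *Mtpap*, the poly(A) polymerase, higher (2.46 ± 0.67) in the second, beside 0.859% lower and 2.04% higher over all tested genes. Between the HOM litters 0 were called.

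Nuclear genes of the respiratory chain, 93 rows with 90 tested, were taken by the start of their names and set beside the members. Most such names stand for subunits. The start Ndufa also admits names in Ndufaf, which are assembly factors of complex I and not subunits. Between HOM and WT 0 of 90 were called, with a median difference of 0.33. Between HET1 and WT 4 were higher and 12 lower (median -0.18), beside 21.4% higher and 3.35% lower over all tested genes, and these calls too were lost with litter as a random effect. Between the HET1 litters 1 was higher and 29 were lower in the second litter, beside 3.64% and 10.1% over all tested genes, with a median of -1.11 beside -0.12. Between the WT litters 3 were higher and 0 lower (2.04% and 0.859% over all tested genes), and between the HOM litters 1 was higher and 0 lower (0.366% and 0.25%), with a median of 1.21 beside 0.27. Between HET2 and WT 0 were called, with a median of -0.69 beside 0.07, and 0 were called between HET2 and HET1, between HOM and HET1 and within litters between HOM and HET2.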

How the data were processed

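Per the labels, the submitters' processing notes and the study's methods, the authors trimmed the paired-end reads with Trim Galore 0.6.5 and cutadapt 2.3, aligned them to GRCm38 with HISAT2 2.1.0, filtered them at a MAPQ of 20 and counted them unstranded. For each of 35269 rows the deposited value is log2 RPM, with genes without reads listed at 0.9 read, and no column belongs to another sample. Dividing by the value of 1 read gave back whole reads (99.9997% of values within 0.05 read), which gave reads, totals and shares. Counting error is the only error these depths cover, since there are no molecular identifiers.

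Members and gene lists were chosen with earlier results of these data known. All 10 members were named, with the 5 genes most and least alike by Pearson correlation (1 of them is not reported here), and from the list of nuclear mitochondrial genes up to 5 called by size, else the 3 with the highest level. The 16412 genes whose mean log2 RPM was 0 or more entered limma 3.58.1 (R 4.3.3; eBayes with trend, Benjamini-Hochberg, threshold 0.05), with all groups in one model, litter as a term for HOM against HET2, and a mean per group and litter for litters. The study's methods used here name no test. Negative binomial tests were not run on log2 values, and voom on recovered reads, the limit of 500000 reads, nuclear re-centring and leaving out HOM replicate 6 were chosen after seeing the data. The fit was tested on simulated data. Replicates are embryos, and litters are few, so p-values mostly measure spread between embryos.

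Nuclear copies were found with blastn among GENCODE transcripts, and windows of 75 bases were compared on both strands. The groups of high and low members were set after their levels were seen. The alternatives covered filters, floors, scaling, litter, weights and left-out litters or embryos.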

Additional observations from a re-analysis of the deposited data

Results flagged for a closer look

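One HOM embryo of the second litter, replicate 6, lay far from the other 9 HOM embryos in 2 members, with the gap to its neighbour taking more than the share of the group's range that Dixon's test allows at the 95% level. It had 9.79 log2 RPM of *mt-Nd6* (next 8.96) and 9.29 of *mt-Co3* (next 6.26). Its share of reads in the members was 19.4%, the highest of its group, from 673837 total reads. The check covered each member and the share in HET2 and HOM, and not the larger WT and HET1 groups. Chance alone flags about 1 in 20 of the sets of values examined in this way.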

How the results depend on the processing

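Over 840 alternative values of single members, 713 kept their direction and their side of the threshold. A further 44 lost the call, 8 gained it and 75 changed sign, and the cause was not tested. Only a member called in the main fit can lose a call, and most values belong to members that were not called. In HET1 against WT, *mt-Nd4* lost its call in 9 of 18 alternatives, *mt-Cytb* in 10 of 18 and *mt-Co1* in 10 of 18. The other losses were 11 between HET1 litters and 4 between WT litters. The labels do not say that a mating number stands for the same animal or day in different crosses, and the litter differences correlated at 0.43 (WT and HET1), -0.41 (WT and HOM) and -0.75 (HET1 and HOM) over 6919 genes, so the number was not used as a pairing. A replicate block on this number called 23 genes in HOM against WT, 3 members in HET1 against WT, and put *mt-Nd2* at 0.03 in HET1. Members called in HET1 against WT were 1 with a minimum mean of 3 and 0 with the common floor, median re-centring, litter as a random effect, litter means, voom, limma without trend or at least 500000 reads, but 5 with array weights. Between WT litters they were 1 with the common floor or without MT reads and 0 with median re-centring, and between HET1 litters 3 with the common floor, 0 with median re-centring and 1 with nuclear re-centring.

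Genes called in HET1 against WT (4054) were 24630 without a filter, 981 at a mean of 3, 745 with the common floor, 859 re-centred on the median, 310 at 500000 reads, 2520 with voom and 0 with litter as a random effect or litter means. In HOM against WT (12) they were 3 with the common floor, at 500000 reads or with those groups alone, 2 with median re-centring, a random litter effect or litter means, and 989 with array weights. In HET2 against WT (2) they were 5 with the common floor, 1 with median re-centring, at 500000 reads or at a mean of 3, 0 with a random litter effect or litter means, 8 with voom, and 9 with array weights or those groups alone.

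Signs changed as follows. In HOM against WT, *mt-Nd2* was at -0.03 without MT reads, -0.70 with median re-centring, -0.05 with nuclear re-centring, -0.14 with array weights, -0.01 with a random litter effect and -0.10 without HOM replicate 6. In HET1 against WT, *mt-Nd2* was at 0.01 with nuclear re-centring, 0.24 with voom, 0.03 with a random litter effect and 0.10 with litter means, *mt-Nd5* at 0.05 (500000 reads and litter means) and 0.47 (voom), and *mt-Nd1* at 0.06 (voom). In HET2 against WT, *mt-Nd5* was at 0.08 with voom, and litter means gave 0.10 (*mt-Nd1*), 0.31 (*mt-Nd2*), 0.32 (*mt-Nd5*), 0.08 (*mt-Cytb*) and 0.18 (*mt-Co1*). In HOM against HET2, *mt-Atp6* was at -0.35 with median re-centring, no litter term gave 0.02 (*mt-Nd1*), 0.24 (*mt-Nd2*), 0.05 (*mt-Nd4*), 0.05 (*mt-Nd6*), 0.11 (*mt-Cytb*), 0.32 (*mt-Co2*) and 0.41 (*mt-Co3*), and the first litter alone 0.33 (*mt-Nd2*), 0.09 (*mt-Nd4*) and 0.25 (*mt-Co3*). Median re-centring gave 0.06 (*mt-Nd1*) and 0.22 (*mt-Atp6*) between WT litters, and 0.15 (*mt-Nd1*), 0.20 (*mt-Nd2*), 0.23 (*mt-Nd4*), 0.08 (*mt-Nd5*), 0.51 (*mt-Cytb*), 0.16 (*mt-Co3*) and 0.33 (*mt-Atp6*) between HET1 litters, and nuclear re-centring 0.03 (*mt-Atp6*) between WT litters.

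Leaving out a litter or an embryo in turn gave 127 to 4464 genes in HET1 against WT, 0 to 86 in HET2 and 9 to 267 in HOM, and 0 to 6 members in HET1. For members that crossed 0, the ranges in HET1 against WT were -0.67 to 0.00 (*mt-Nd1*), -0.30 to 0.31 (*mt-Nd2*), -0.39 to 0.35 (*mt-Nd5*), -0.64 to 0.23 (*mt-Nd6*), -2.30 to 0.08 (*mt-Co2*) and -1.75 to 0.08 (*mt-Co3*). In HET2, where leaving out the first litter leaves 1 embryo that is assumed to vary like the other groups and gives the upper ends other than that of *mt-Co2*, they were -0.51 to 0.64 (*mt-Nd1*), -0.53 to 0.98 (*mt-Nd2*), -0.70 to 0.69 (*mt-Nd4*), -0.44 to 0.93 (*mt-Nd5*), -0.86 to 0.29 (*mt-Nd6*), -0.82 to 0.79 (*mt-Cytb*), -0.66 to 0.83 (*mt-Co1*), -2.06 to 0.09 (*mt-Co2*) and -2.08 to 0.46 (*mt-Co3*). In HOM against WT they were -0.20 to 0.31 (*mt-Nd2*), -0.58 to 0.02 (*mt-Nd5*), -1.73 to 0.42 (*mt-Co2*) and -1.67 to 0.16 (*mt-Co3*), and against HET2 -0.20 to 0.33 (*mt-Nd2*), -0.42 to 0.09 (*mt-Nd4*), -0.15 to 0.20 (*mt-Co2*), -0.21 to 0.25 (*mt-Co3*) and -0.08 to 0.46 (*mt-Atp6*). *mt-Co2*, *mt-Co3* and *mt-Atp6* had 5 to 823 reads per embryo, which limits the precision of their values. Ranges that kept their sign in HOM against WT were -0.67 to -0.09 (*mt-Nd1*), -0.61 to -0.28 (*mt-Nd4*), -0.88 to -0.33 (*mt-Nd6*), -0.88 to -0.05 (*mt-Cytb*), -0.82 to -0.15 (*mt-Co1*) and -0.52 to -0.16 (*mt-Atp6*), and in HET1 against WT -0.86 to -0.27 (*mt-Nd4*), -0.72 to -0.24 (*mt-Cytb*), -1.05 to -0.18 (*mt-Co1*) and -0.76 to -0.27 (*mt-Atp6*).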
